A study of Homo sapiens with 7 samples.

Results

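RUNX2 peaks at the same gene ends in both KARPAS-45 and PER-117, 2 human cell lines of T-cell acute lymphoblastic leukemia (T-ALL), numbered 4827. They were chosen by RUNX2 peak calls and position, as KARPAS-45 peaks that overlapped a PER-117 peak by at least 1 bp and had their midpoint within 1 kb of either end of a protein-coding gene. The KARPAS-45 list held 42911 RUNX2 peaks in all and the PER-117 list 21027, on chromosomes 1 to 22 and X. The 4827 sites lay at the ends of 5289 of 19974 protein-coding genes, or 26.5%. For that reason the overlap, the location and the fold enrichments are given below as a description and not as a finding.

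RUNX2 and the acetylated histone H3K27ac were mapped by chromatin immunoprecipitation and sequencing, with 1 library per line and antibody. The RUNX2 antibody was clone D1H7 and the H3K27ac antibody was ab4729. KARPAS-45 is known to carry a rearranged KMT2A gene, and the labels name no treatment or engineered change in either. KARPAS-45 was grown in 20% and PER-117 in 10% fetal bovine serum, and chromatin of both was crosslinked with 1.1% formaldehyde for 10 min. With 1 library each there were no replicates, no test between lines was possible, and any difference between the lines is one between libraries. Ranges in brackets after a share are Wilson 95% intervals, which cover only counting error, and peaks near each other share chromatin. Each fold enrichment is the authors' own value for that peak and ranks peaks within its list only.

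The T-cell label was checked on gene-end H3K27ac. All 8 T-lineage markers (CD3E, CD3D, CD3G, CD2, CD7, CD247, LCK and ZAP70) carried it in both lines, as did 2 of 4 B-lineage markers. None of 4 myeloid, 3 erythroid and 2 natural killer markers did in either line. These short sets do not stand for the longer lists used further on, in which 21 of 28 T-lineage genes, 6 of 13 B-lineage genes, 5 of 14 natural killer and cytotoxic genes, 3 of 15 erythroid and megakaryocyte genes and 1 of 15 myeloid genes carried H3K27ac at an end in both lines. In PER-117, whatever the state in KARPAS-45, the numbers were 21 T-lineage, 8 B-lineage, 8 natural killer and cytotoxic, 7 erythroid and megakaryocyte and 3 myeloid genes. The T-lineage genes GATA3, CD5, CD1A, CD4, DTX1, CD8A and CD8B carried H3K27ac at an end in KARPAS-45 and not in PER-117. Of 4 non-blood markers, KRT8, KRT18 and COL1A1 carried it in KARPAS-45 and none did in PER-117. The KARPAS-45 H3K27ac list was the longer, with 63265 regions over 167 Mb against 53263 regions over 76.2 Mb in PER-117.

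RUNX proteins are transcription factors that bind DNA through the Runt domain together with the partner subunit CBFB. They recognise a short core that reads TGTGGT or TGCGGT, and its reverse complement ACCACA or ACCGCA on the other strand. RUNX2 is best known for its role in bone formation, while RUNX1 and RUNX3 are the family members usually studied in T-cell development. H3K27ac marks active promoters and enhancers, and the starts of active genes are commonly flanked by it.

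The stretches below show what DNA lay under some of the strongest sites, from the part of the promoter before the gene start, 5′ to 3′ on the strand of the gene. They come from the RefSeq promoter windows of GRCh38.p14. Capitals mark a RUNX core in either form and on either strand, and each stretch runs up to 60 bases to each side of the KARPAS-45 summit, the point of highest signal in the peak. The first 3 belong to sites among the 10 strongest, and the others to the strongest of the named sites outside H3K27ac in both lines (LOC105375012), acetylated in KARPAS-45 only (MAP1A) and acetylated in PER-117 only (KCTD6). In each case sites were passed over where the summit did not lie in the 250 bases before the start.
PSIP1: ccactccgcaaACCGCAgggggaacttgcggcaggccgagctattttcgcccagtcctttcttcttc
PROSER3: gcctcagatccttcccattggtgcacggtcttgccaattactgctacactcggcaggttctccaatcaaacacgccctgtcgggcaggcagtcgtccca
DSTYK: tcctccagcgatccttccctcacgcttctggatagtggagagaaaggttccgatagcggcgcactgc
LOC105375012: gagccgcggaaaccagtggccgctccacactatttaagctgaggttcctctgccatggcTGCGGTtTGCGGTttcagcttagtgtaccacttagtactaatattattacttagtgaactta
MAP1A: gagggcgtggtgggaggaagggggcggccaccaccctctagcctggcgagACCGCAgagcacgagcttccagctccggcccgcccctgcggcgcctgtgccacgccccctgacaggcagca
KCTD6: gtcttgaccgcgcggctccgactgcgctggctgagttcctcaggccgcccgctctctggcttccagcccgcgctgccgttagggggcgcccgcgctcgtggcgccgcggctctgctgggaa
The PSIP1 stretch is chr9:15511154-15511220 on the minus strand, and its core lay 7.5 bp from the KARPAS-45 summit. The LOC105375012 stretch, chr6:30463687-30463807 on the minus strand, held 2 cores in tandem, the nearer 1.5 bp from the summit. MAP1A (chr15:43510776-43510896, plus strand) held 1 core at 7.5 bp. The stretches of PROSER3 (chr19:35757926-35758024, plus strand), DSTYK (chr1:205211703-205211769, minus strand) and KCTD6 (chr3:58491877-58491997, plus strand) held 0, which says only that these letters were not in these bases.

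Across all promoters, RUNX cores were more common where a shared gene-end peak had its summit than elsewhere, and they gathered at the summit itself. Of 15715 promoter windows, each from 250 bases before to 50 after the start of a protein-coding gene, 2565 held the KARPAS-45 summit of a shared gene-end peak. Either core form was present in 32.7% of these (30.9 to 34.5). It was present in 18.2% (16.6 to 19.9) of 2070 windows with the summit of a gene-end peak found in KARPAS-45 only, and in 11.9% (10.2 to 13.9) of 1231 windows of genes with H3K27ac at an end in both lines and RUNX2 at an end in neither. Among all windows the share was 18.6%. Over all gene-end peaks, the shared ones were stronger than the KARPAS-45-only ones, with median KARPAS-45 fold enrichments of 7.90 against 5.27. Strength was not matched between these windows. The form TGCGGT stood at 20.2% in the windows with a shared peak, against 8.58% of all windows, and TGTGGT at 14.97% against 10.9%. The letters of the T form read backwards, TGGTGT, served for comparison and stood at 9.01% against 9.67%. The core of the ETS factors, CCGGAAG, was present in 32.4% against 14.1%, and the GC box GGGCGG in 71.1% against 58.5%. The CCAAT box was found in 40.7% against 36.3%, the E-box CACGTG in 11.6% against 8.85% and TGACGTCA in 4.76% against 2.58%. In the windows with a KARPAS-45-only peak the GC box (82.1%), the CCAAT box (38.7%) and the E-box (11.5%) stood at shares above or close to those with a shared peak. TGACGTCA stood at 3.91% in the windows with a KARPAS-45-only peak. The GATA letters AGATAA were less common with a shared peak than among all windows, in 4.05% against 7.57%. They were also less common in the windows with a KARPAS-45-only peak (2.66%) and in the windows of acetylated genes without RUNX2 (4.87%). In that last group H3K27ac could lie at either gene end, so the window itself need not carry it. All motifs were searched on both strands, matches of different motifs may overlap, and neighbouring genes can share a peak and part of a window.

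Base composition moved with these groups. The median GC content was 63.7% in windows with a shared peak and 70.0% in those with a KARPAS-45-only peak. It was 64.7% in the windows of acetylated genes without RUNX2 and 62.7% among all. Within each GC quartile of all windows, TGCGGT was present in 17.3% to 20.9% of windows with a shared peak. In the windows of acetylated genes without RUNX2 the shares were 1.86% to 7.53%. For TGTGGT the shares were 10.2% to 27.2% against 3.64% to 12.4%, with the shared peak higher in each of the 4 quartiles for both forms. The reversed letters TGGTGT were higher with a shared peak in the lowest GC quartile (14.8% against 9.41%) and the highest (5.22% against 3.38%). They were lower in quartile 2 (10.4% against 16.1%) and quartile 3 (7.87% against 9.35%). Windows with a KARPAS-45-only peak were not compared by GC quartile.

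Around the KARPAS-45 summits, TGCGGT occurred 2.502 times per kb of scanned positions within 10 bp and 0.303 times beyond 200 bp. TGTGGT gave 1.62 and 0.189 and the reversed letters 0.217 and 0.435. ETS cores lay between both RUNX forms in density near the summit but spread more widely, with 1.93 matches per kb within 10 bp, 2.15 at 25 to 50 bp and 0.549 beyond 200 bp. For both RUNX forms, PER-117 summits of the same sites gave a like picture. TGCGGT and TGTGGT had 1.67 and 1.56 matches per kb within 10 bp, and 0.321 and 0.226 beyond 200 bp. The ETS core differed in its place, as it was denser than both RUNX forms within 10 bp of the PER-117 summits, with 1.93. From 10 to 25 bp TGCGGT was denser than the ETS core, with 1.93 against 1.59. At 25 to 50 bp the ETS core gave 2.03, against 1.27 for TGCGGT and 0.884 for TGTGGT. Summits lie close to gene starts, and distance from the summit and distance from the start were not separated for any motif, the RUNX cores included.

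A RUNX core close to the summit was more common at stronger peaks in both lines. The promoter windows end near some summits, where a core beyond the edge was not seen. Among the 2317 sites with their KARPAS-45 summit in a promoter window, a core of either form lay within 50 bp of the summit at 24.6%. By quartile of fold enrichment, weakest first, the shares were 8.62%, 13.6%, 24.7% and 51.3% (47.2 to 55.3). The median fold enrichments of those quartiles were 4.58, 6.77, 9.98 and 17.3. For the PER-117 summits the quartiles gave 11.9%, 12.6%, 24.8% and 46.1% (41.5 to 50.8). The 569 sites with a core near the KARPAS-45 summit had median fold enrichments of 13.03 in KARPAS-45 against 7.97 in PER-117, and the 1748 without one had 7.17 and 5.39.

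**Figure D1:**
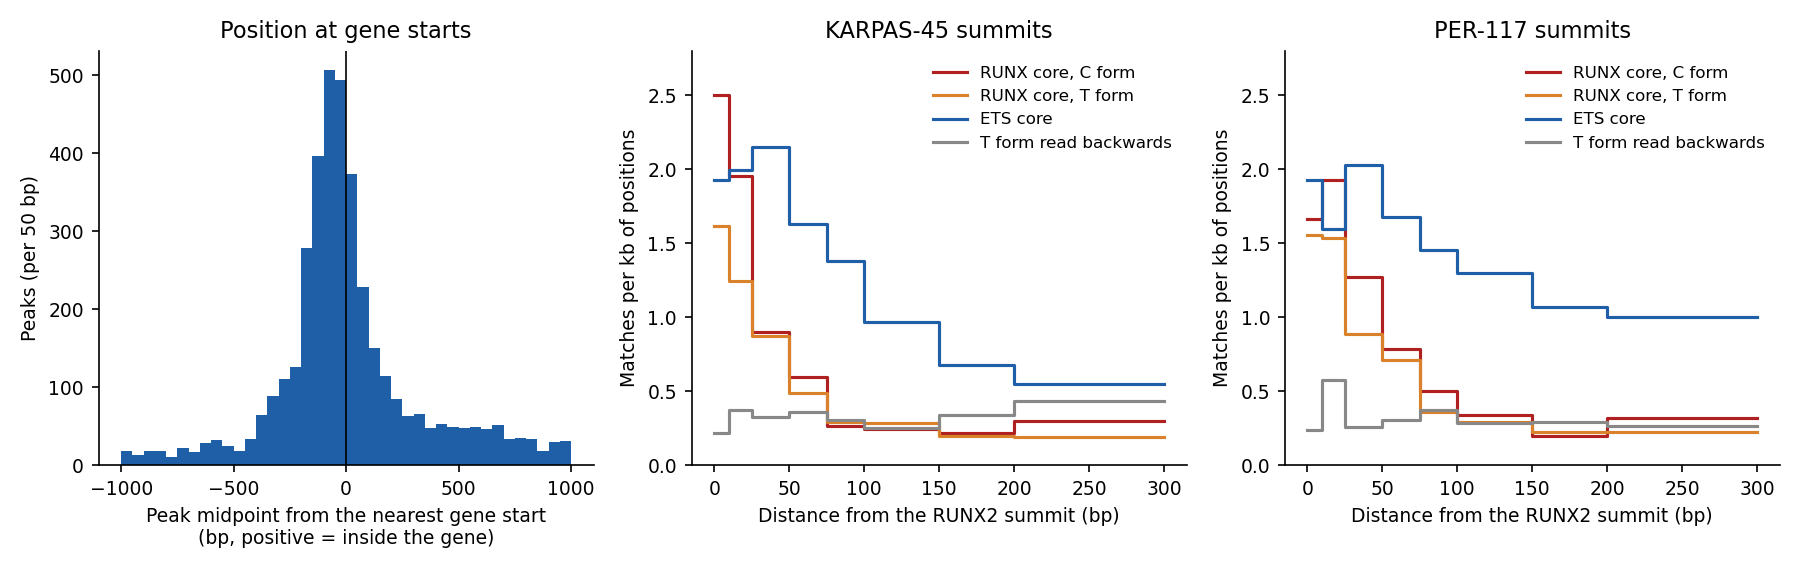
Left, number of shared gene-end RUNX2 peaks per 50 bp by distance of their midpoint from the nearest gene start (bp), positive inside the gene. Middle and right, matches of 4 short motifs per kb of scanned promoter positions by distance (bp) from the KARPAS-45 and PER-117 summits of these peaks. Both RUNX core forms are densest within 25 bp of the summit and come near the level of the reversed letters beyond 100 bp in KARPAS-45, while the ETS core falls off more slowly.

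By position, the shared sites were mostly sites at gene starts. A site near several genes counted as at a start if any of them started within 1 kb. The same split was not made for other gene-end RUNX2 peaks, so no share stands beside it. A strand was known for 15812 of the 19974 genes. With these, 3930 sites lay within 1 kb of a gene start, 197 only at a 3′ end, and 700 at genes whose strand was not known, so that 95.2% of the sites with a known position were at a start. Of those at a start, 2752 (70.03%) had their midpoint within 250 bp of it, and 40.7% lay downstream of it. The median midpoint lay 38 bp upstream, with a value of -38. At 658 sites 2 genes on opposite strands started within 1 kb, and 1066 sites in all touched the ends of more than 1 gene, 1017 of them 2 genes, 48 of them 3 and 1 of them 4.

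Some of the strongest sites between neighbouring genes were those of ERAP1 and LNPEP, aminopeptidases of which ERAP1 trims peptides for presentation on MHC class I, with fold enrichments of 51.7 in KARPAS-45 against 32.2 in PER-117. The site of ANXA4 and AAK1, an annexin and a kinase of endocytosis, had 35.5 and 23.7. That of TPR, a nuclear pore protein, and ODR4 had 31.8 and 35.8. MICOS13, a component of the mitochondrial cristae junction, and HSD11B1L shared a site with 31.7 and 20.1. All 4 of these sites were acetylated in both lines. The site of MC1R, a melanocortin receptor, and LOC124903759 had 35.2 and 19.8 and was acetylated in PER-117 only. By chromosome, the share of protein-coding genes with a shared site ran from 14.3% on X (121 of 848) and 18.4% on chromosome 21 to 32.7% on chromosome 19 (475 of 1451).

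The strongest shared sites, ordered by the worse of their ranks in both lines, lay at genes of varied roles. PSIP1, which tethers KMT2A complexes to chromatin, came first, with a peak at chr9:15510546-15511694 and fold enrichments of 59.9 in KARPAS-45 against 51.7 in PER-117. GTF2A2, a subunit of the general factor TFIIA, had 61.04 and 36.9. WDR24, part of the GATOR2 complex that relays amino acid supply to mTORC1, had 67.5 and 36.8. PROSER3 had 76.8 and 33.4. The kinase DSTYK had 48.98 and 32.4 and the ERAP1 site followed. C16orf54 had 51.6 and 30.8, and the microtubule-binding protein EML2 52.0 and 30.6. TFAM, which packages and transcribes mitochondrial DNA, had 43.2 and 27.2, and COA6, an assembly factor of cytochrome c oxidase, 41.03 and 34.1. All 10 were acetylated in both lines, and the KARPAS-45 and PER-117 summits of these 10 lay between 0 bp (WDR24) and 51 bp (PSIP1) apart.

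Across all 4827 sites the median fold enrichment was 7.90 in KARPAS-45 (quartiles 5.35 and 12.4, range 2.31 to 96.5) and 5.94 in PER-117 (4.46 and 8.38, range 1.95 to 57.1). The strengths of the 2 libraries went together only in part, with a Spearman correlation of 0.495 across the 4827 sites, which share their DNA and the antibody. Of the 1000 strongest sites of each line 545 were in both sets. Sites found in both lines were stronger than gene-end sites of a single line, which had medians of 5.27 in KARPAS-45 against 4.38 in PER-117. They were weaker than shared sites away from gene ends. Of those, the 8560 KARPAS-45 peaks had a median of 9.94 and the 8508 PER-117 peaks 6.62. As sites were chosen by RUNX2 calls in both lists, the contrast with single-line sites is in part built into that choice.

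Shared gene-end peaks were wide. Their median width was 435 bp in KARPAS-45 (quartiles 315 and 613, range 170 to 2289) and that of their PER-117 partners 397 bp (281 and 564, range 192 to 1923). Gene-end peaks of a single line had medians of 291 bp in KARPAS-45 against 274 bp in PER-117. A wider peak overlaps another more easily, so that this contrast is in part built into the choice of sites. Shared peaks away from gene ends passed the same overlap and were narrower, with medians of 349 bp in KARPAS-45 against 344 bp in PER-117, although their fold enrichments were higher. More than 1 summit was listed for 21.9% of the shared gene-end peaks in KARPAS-45, against 8.84% of the KARPAS-45-only gene-end peaks and 7.99% of the shared distal peaks. A width of 1000 bp or more was reached by 204 sites in KARPAS-45 against 164 in PER-117, and by 35 in both.

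The widest KARPAS-45 peak lay at H2AZ2, a histone H2A variant, with 2289 bp in KARPAS-45 against 719 bp in PER-117. HCFC1, a coregulator of cell-cycle genes, had 2097 and 954 bp, and TYMS, the thymidylate synthase needed for DNA synthesis, 1876 and 546 bp. Next were the site of LOC124901355 and ZNF292 with 1686 and 1183 bp and AGBL5, an enzyme that trims glutamate from tubulin, with 1680 and 695 bp. Among the widest PER-117 partners was that at SCAF11, a splicing-associated protein, with 801 bp in KARPAS-45 against 1923 bp in PER-117. UQCC3, an assembly factor of respiratory complex III, had 1666 and 1570 bp and was wide in both lines. At ZBED5, 2 KARPAS-45 peaks of 919 and 537 bp overlapped the same PER-117 peak of 1566 bp. Width in one line said little of width in the other across all sites, with a Spearman correlation of 0.279.

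**Figure D2:**
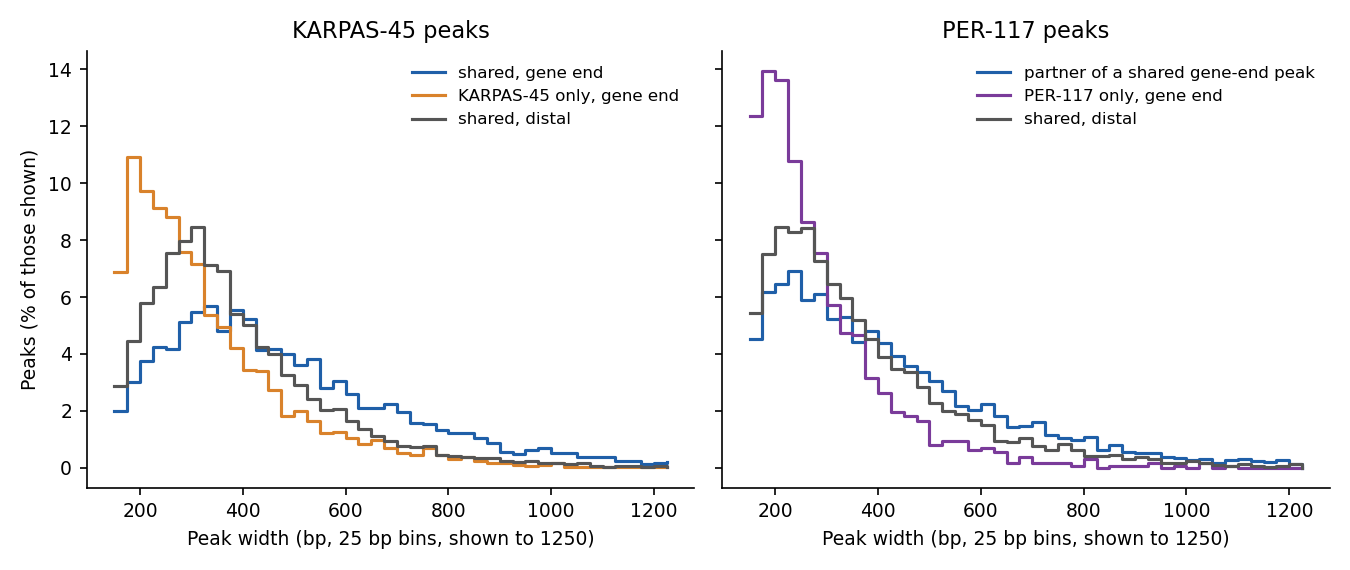
Distribution of RUNX2 peak widths (bp, in bins of 25 bp, the widest not shown) as a percentage of the peaks shown, for KARPAS-45 (left) and PER-117 (right). Shown are shared gene-end peaks (medians 435 and 397 bp), gene-end peaks of a single line and shared distal peaks. In both panels the bulk of the first group lies further to the right than that of the others.

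The summits of the lines coincided less closely at gene ends than away from them. The median distance between the KARPAS-45 and PER-117 summit of a site was 60 bp at the shared gene-end sites (quartiles 23 and 136) and 26 bp at the shared distal sites, and 45.1% against 73.7% of sites had summits within 50 bp. This held in each class of width. The median distance was 61 bp against 29 bp for peaks under 300 bp in KARPAS-45, 52.5 bp against 23 bp from 300 to 600 bp, and 75 bp against 32 bp from 600 bp. Summits also lay closer together where a RUNX core was near. With a core within 50 bp of the KARPAS-45 summit (569 sites) the median was 37 bp, and without one (1748 sites) 72 bp. The sites with a core were also stronger, with a median KARPAS-45 fold enrichment of 13.03 against 7.17. So were the shared distal sites against the shared gene-end sites, with 9.94 against 7.90. Strength was not matched in either comparison.

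H3K27ac covered the midpoint of nearly all shared gene-end sites in both lines. Of the 4827 sites, 4428 lay in H3K27ac of both lines (91.7%, 90.9 to 92.5), 204 in that of KARPAS-45 only, 61 in that of PER-117 only and 134 in neither (2.78%). Among all RUNX2 peaks, the share in H3K27ac of both lines was 38.8% for KARPAS-45 and 56% for PER-117. Gene-end peaks of a single line stood at 65.7% (64.4 to 66.9) for the 5247 of KARPAS-45 and at 70.4% (67.9 to 72.9) for the 1265 of PER-117. Shared distal peaks stood at 55.9% (54.8 to 56.9). Shared sites carry a RUNX2 peak of each line, and RUNX2 peaks of a line lay mostly in that line's own H3K27ac, so part of this contrast follows from the choice of sites. In the KARPAS-45 H3K27ac list alone the shared gene-end sites stood at 96.0% and the KARPAS-45-only gene-end sites at 88.5%. Shared sites were higher at every strength: from the weakest to the strongest quartile of all gene-end KARPAS-45 peaks, 93.4%, 92.7%, 92.9% and 89.7% of the shared and 69.01%, 65.8%, 65.5% and 57.1% of the KARPAS-45-only sites were acetylated in both lines. The covered length of the H3K27ac lists bears on this. When only the widest KARPAS-45 regions were kept, so that both lists covered equal lengths, 28.0% of the shared gene-end sites were acetylated in both lines, against 19.3% of the KARPAS-45-only gene-end sites and 27.04% of the shared distal sites. In the shortened KARPAS-45 list alone the shared gene-end sites stood at 28.8%, below the shared distal sites at 30.6%. This setting kept the 5379 widest of 63265 KARPAS-45 regions, so narrower regions were dropped by its rule. With H3K27ac of −log10 q of 2 or more, 76.8% of the shared gene-end sites were acetylated in both lines. The KARPAS-45-only gene-end sites then stood at 53.7% and the shared distal sites at 46.9%. With the wider 50% of each H3K27ac list these shares were 87.3%, 59.7% and 49.1%.

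**Figure D3:**
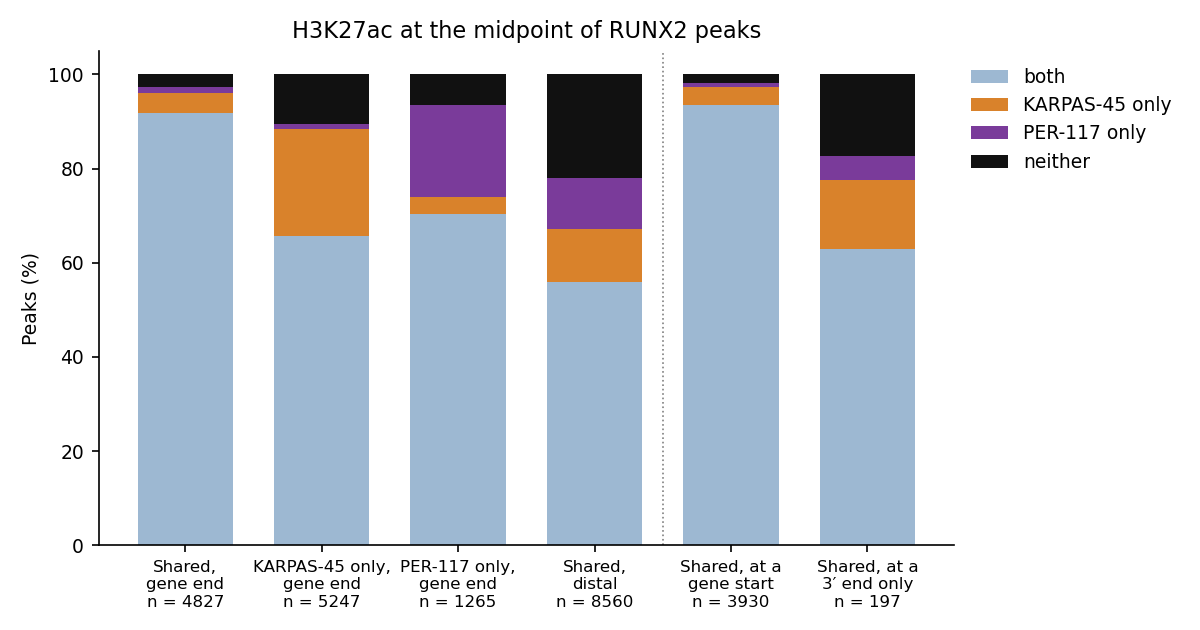
Percentage of RUNX2 peaks whose midpoint lay in H3K27ac of both lines, of KARPAS-45 only, of PER-117 only or of neither. The bars left of the dotted line compare the 4827 shared gene-end peaks (91.7% in both) with gene-end peaks of a single line and shared distal peaks, and those right of it split the shared gene-end peaks with a known strand into 3930 at a gene start and 197 at a 3′ end only.

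Within the shared sites, acetylation differed by the kind of gene end. At gene starts 93.5% of 3930 sites (92.6 to 94.2) lay in H3K27ac of both lines, against 62.9% of the 197 at a 3′ end only (56.01 to 69.4), where 17.3% lay in H3K27ac of neither. Sites at the ends of more than 1 gene stood at 95.4% (94.0 to 96.5) and those at 1 gene at 90.7% (89.7 to 91.6). The strongest KARPAS-45 quartile of the sites was acetylated in both lines at 87.9% (86.0 to 89.6), below the other quartiles, which ran from 92.5% to 93.8%. In PER-117 the quartiles ran from 91.0% to 92.3%. A 3′ end in this table can also hold the start of a transcript or non-coding gene that was not used here.

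Among the strongest sites outside H3K27ac in both lines, DIABLO, which relieves the block on caspases, had fold enrichments of 53.1 in KARPAS-45 against 26.4 in PER-117. LOC105375012 had 96.5, the highest KARPAS-45 value of all the shared sites, and 21.3. The 3′ end of CDK5RAP3 had 26.5 and 20.03, LGALS2, a galectin, 44.6 and 14.4, and NKD1, an inhibitor of Wnt signalling, 21.7 and 20.6. Their PER-117 values were 14.4 or more, against an upper quartile of 8.38 over all shared sites. This follows from the choice of these sites by strength in both lines. A RUNX core lay within 50 bp of the KARPAS-45 summit at 21 of the 36 sites acetylated in neither line that had this summit in a promoter window (58.3%, 42.2 to 72.9). The share was 31.9% (23.4 to 41.9) of 94 such sites acetylated in 1 line and 23.7% (22.0 to 25.5) of 2187 acetylated in both. The median KARPAS-45 fold enrichments of these 3 groups were 9.94, 8.21 and 8.02.

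Sites acetylated in KARPAS-45 only were led by BTRC, a substrate receptor of a ubiquitin ligase, with 40.1 in KARPAS-45 against 44.4 in PER-117. SGSH, a lysosomal sulfatase that shares its site with SLC26A11, had 31.8 and 18.4, the 3′ end of LMOD1 25.8 and 21.7, and the site of MAP1A and TP53BP1 27.1 and 13.7. Sites acetylated in PER-117 only were those of MC1R, given above, the 3′ end of DEPDC1B with 32.1 and 18.9, KHNYN with 25.8 and 15.6, PRPF40B, a splicing factor, with 19.4 and 20.9, and KCTD6 with 29.2 and 11.5.

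The H3K27ac regions around shared sites were wider than gene-end regions without RUNX2, but not than those with other RUNX2 peaks in both lines. The 4632 sites acetylated in KARPAS-45 lay in 4114 regions with a median width of 3380 bp (quartiles 2164 and 6529), and the 4489 acetylated in PER-117 in 4046 regions with a median of 2040.5 bp (1508 and 2855). Regions that reached a gene end but held no RUNX2 midpoint of their line had medians of 1305.5 bp in KARPAS-45 (3934 regions) and 1138.5 bp in PER-117 (5732 regions). Gene-end regions with other RUNX2 peaks of their line had medians of 3146 bp in KARPAS-45 (4231 regions) and 2616.5 bp in PER-117 (1506 regions), in PER-117 above the regions with a shared site. A wide region can hold a peak by its length alone, and this was not matched. Within each list the authors' median fold enrichment of the regions was 2.66 with a shared site and 2.38 without RUNX2 in KARPAS-45, and 7.12 and 4.21 in PER-117. The midpoints of the shared sites fell in the middle 50% of their region at 71.2% of sites in KARPAS-45 against 80.7% in PER-117, a median of 1129 and 751 bp from the nearer edge.

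Some KARPAS-45 regions were over 100 kb wide. How the authors came to regions of this size is not given in the sources used here, so the widths of both lists may not be comparable. The widest KARPAS-45 region with a shared site, 216960 bp, held the start of MTRFR, a mitochondrial translation release factor, where the PER-117 region was 2921 bp. The region at the 3′ end of FAM53B was 162617 bp in KARPAS-45 against 17352 bp in PER-117, and that at the histone deacetylase HDAC4 121386 and 2330 bp. DNAJB12, a cochaperone with its site at the 3′ end, had 113346 and 12005 bp, and UBASH3B, a phosphatase that dampens kinase signalling, 111741 and 1613 bp. In PER-117 the widest region, 38650 bp, lay at the histone gene H3C2, with 16969 bp in KARPAS-45. ANKRD13D had 31365 bp in KARPAS-45 against 25004 bp in PER-117, XPNPEP2 20262 and 23824 bp, the histone genes H2AC11 and H2BC11 26231 and 22899 bp, and ARRB1, a receptor-binding arrestin, 746 and 20475 bp. Across the 4428 sites acetylated in both lines, the region widths had a Spearman correlation of 0.588.

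Genes with a shared site were with few exceptions acetylated genes. Of the 5289 genes, 5135 (97.1%) had H3K27ac within 1 kb of an end in both lines. Of the 10359 genes so acetylated, 49.6% had a shared RUNX2 site, against 0.808% of the 7056 acetylated in neither. The gene lists below are therefore set against 49.6%, beside 26.5% for all protein-coding genes. Genes of a list can share a site, and some genes are in more than 1 list. With −log10 q of 10 or more required of both RUNX2 peaks, the level of all genes acetylated in both lines was 24.2%, and the shares below fell with it to 70.6% for the actin and Rac effectors, 47.6% for the T-lineage genes, 45.7% for the spliceosome, 44.1% for the tRNA synthetases and 41.0% for the cytosolic ribosomal proteins. The complex I genes then stood at 20% and the RUNX cofactors at 12.5%, under the level of all genes. The replication-dependent histone genes stood at 29.4%, the Mediator subunits at 26.7% and the apoptosis genes at 26.1%.

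Lists of RNA processing and protein synthesis stood above 49.6%. Of 46 spliceosome genes, all acetylated in both lines, 37 had a shared site (80.4%, 66.8 to 89.3). The helicase DHX8 had fold enrichments of 24.4 in KARPAS-45 against 17.7 in PER-117, the core protein SNRPB 18.3 and 11.9, and the splicing regulators SRSF5 and SRSF10 44.8 and 11.2, and 16.2 and 13.4. Of 83 acetylated genes of cytosolic ribosomal proteins, 64 had one (77.1%, 67.0 to 84.8), among them RPS3A with 29.8 and 30.7. Translation initiation factors stood at 31 of 42 (73.8%, 58.9 to 84.7), led by EIF1B with 31.8 and 33.1, and aminoacyl-tRNA synthetases at 24 of 34 (70.6%, 53.8 to 83.2), led by AARS1 with 27.7 and 10.1. Mitochondrial ribosomal proteins stood at 47 of 75 (62.7%, 51.4 to 72.7), with MRPS23 at 39.8 and 21.7, and subunits of respiratory complex I at 22 of 35 (62.9%, 46.3 to 76.8, which includes 49.6%).

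DNA replication and repair genes stood at 26 of 36 (72.2%, 56.0 to 84.2). RPA2, a single-strand binding subunit, had 20.6 in KARPAS-45 against 14.1 in PER-117 and BRCA1 14.6 and 11.7. The replication-dependent histone genes stood at 33 of 51 (64.7%, 51.0 to 76.4), with H4C4 at 21.6 and 14.2. Among genes acetylated at an end in PER-117, 33 of 62 histone genes (53.2%) had a shared site, against 46.7% of all such genes. Chromatin regulators had 28 of 43 (65.1%, 50.2 to 77.6), where SETD1B, a histone H3K4 methyltransferase, had 17.2 and 19.6. The intervals of the Mediator subunits (19 of 30, 63.3%), led by MED23 with 21.8 and 16.0, of the apoptosis genes (15 of 23, 65.2%) and of the cell-cycle genes (14 of 28, 50%) all included 49.6%. In the apoptosis list CFLAR, an inhibitor of death receptor signalling, came first by the worse of its ranks in both lines, with 18.9 in KARPAS-45 against 45.8 in PER-117, and in the cell-cycle list the mitotic checkpoint kinase BUB1, with 13.1 and 22.3.

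Among lists tied to blood cells, the actin and Rac effectors had the largest share, 13 of 17 acetylated genes (76.5%, 52.7 to 90.4). ARHGAP30, a GTPase-activating protein, had 21.4 in KARPAS-45 against 18.2 in PER-117, the GTPase RAC2 16.9 and 24.5, and WAS, the Wiskott-Aldrich actin regulator, 20.4 and 10.45. T-cell receptor signalling genes stood at 15 of 25 (60%, 40.7 to 76.6), led by the phosphatase PTPN22 with 45.8 and 19.3 and including the kinase LCK with 13.4 and 7.57. T-lineage genes stood at 12 of 21 acetylated genes (57.1%, 36.5 to 75.5) and at 14 of all 28. Both intervals include 49.6%. At single T-lineage sites the lines differed in H3K27ac. The midpoint of the site at CD1A was acetylated in KARPAS-45 only and that at the costimulatory receptor CD28 in PER-117 only. The sites of CD3E and CD2, with midpoints 627 and 607 bp beyond the higher-coordinate gene end, were acetylated in both.

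Of the RUNX genes and CBFB, RUNX3, RUNX1 and RUNX2 had a shared site and CBFB had none. The RUNX3 peak was 804 bp wide in KARPAS-45 and 1016 bp in PER-117, with its midpoint 1 bp from the gene end, that of RUNX1 1047 and 497 bp at a distance of 11 bp, and that of RUNX2 617 and 574 bp at 38 bp. RUNX cofactors stood at 7 of 16 acetylated genes (43.8%, 23.1 to 66.8), among them the deacetylase HDAC1 with fold enrichments of 11.4 in KARPAS-45 against 8.61 in PER-117 and the acetyltransferase EP300 with 11.2 and 8.84. Proteasome subunits (23 of 44, 52.3%), zinc finger genes named ZNF (181 of 334, 54.2%), autophagy and lysosome genes (12 of 27, 44.4%) and solute carriers (77 of 173, 44.5%) lay close to the level of all acetylated genes.

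The lists of other tissues and lineages differed in how many genes were acetylated in both lines, and with few such genes a count of 0 says little about RUNX2. Shared sites were present at 0 of 15 myeloid genes, 0 of 15 non-blood markers, 0 of 13 bone targets of RUNX2, 0 of 55 keratins and 1 of 392 olfactory receptors, OR10P1, whose site lay outside H3K27ac in both lines and had 20.4 in KARPAS-45 against 3.08 in PER-117. Acetylated in both lines were 1 of the myeloid genes, 0 of the non-blood markers, 1 of the bone targets, 1 of the keratins and 0 of the olfactory receptors. Of 13 B-lineage genes 1 had a shared site, the surrogate light chain gene IGLL1, with 3.40 and 18.6, and of 15 erythroid and megakaryocyte genes 1 did, the transferrin receptor TFRC, with 5.83 and 6.67. Of 14 natural killer and cytotoxic genes 5 had one (35.7%, 16.3 to 61.2, above the 26.5% of all genes but with an interval that includes it), and of the 5 acetylated in both lines 3 did. The 5 genes with a shared site included the pore-forming PRF1 with 11.5 and 12.4 and the protease GZMA with 13.4 and 7.19. The sites at GZMA and at TBX21, a T-box factor, were acetylated in PER-117 only.

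**Figure D4:**
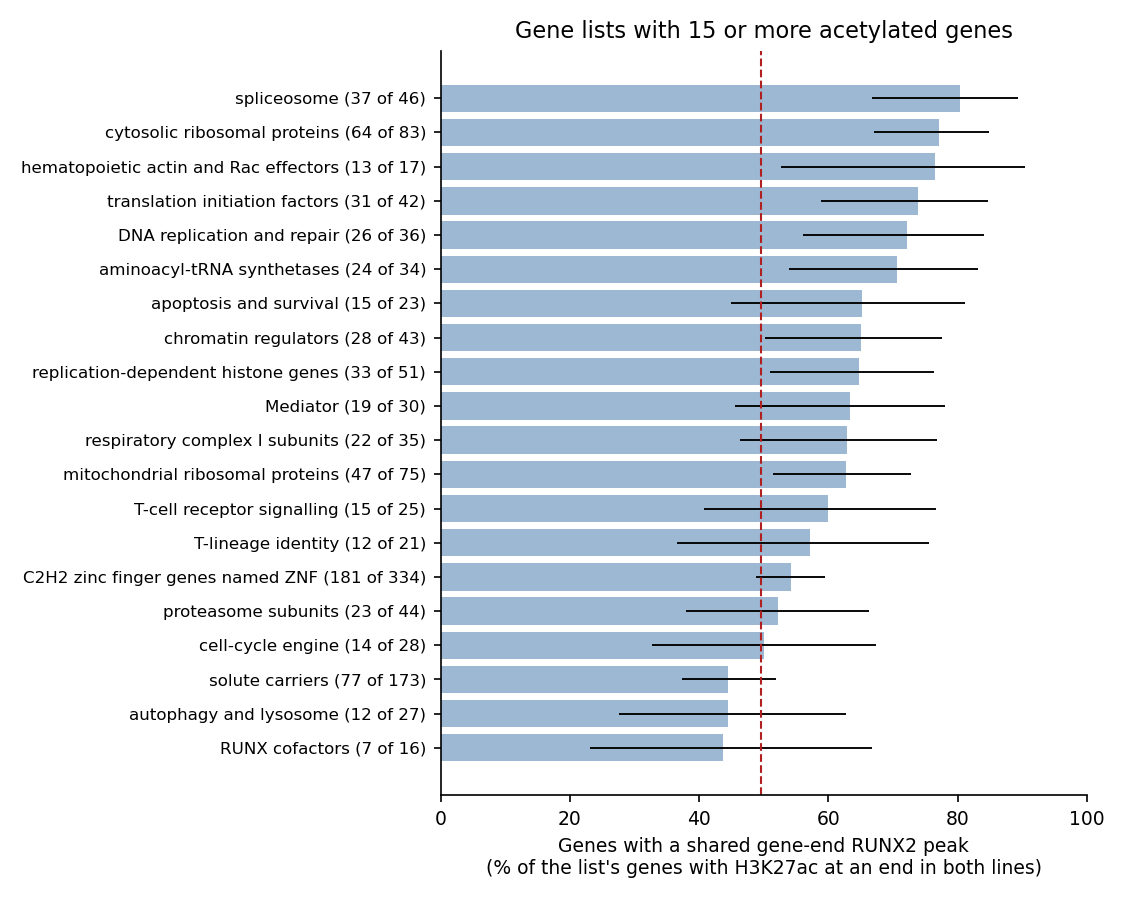
Share of genes with a shared gene-end RUNX2 peak among the genes of each list that had H3K27ac at an end in both lines, with Wilson 95% intervals, for the lists with at least 15 such genes (counts in brackets). The dashed line marks 49.6%, the share among all 10359 genes acetylated in both lines, and the spliceosome, ribosomal protein and actin and Rac lists lie furthest above it.

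Just inside the 1 kb limit lay the sites of TDP1 at 997 bp and of PSMB10 and ZNF367 at 999 bp, with fold enrichments of 15.3 in KARPAS-45 against 3.72 in PER-117, of 7.67 and 4.26, and of 9.29 and 7.88. Just outside lay shared peaks near SLC2A1 at 1002 bp, PPP3R1 at 1004 bp and RDH11 at 1005 bp, with 11.7 and 6.81, 4.32 and 6.05, and 3.34 and 2.78. All 6 were acetylated in both lines.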

How the data were processed

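RUNX2 and H3K27ac peak lists of KARPAS-45 and PER-117 were analysed as deposited, 1 list per ChIP library. The 3 input libraries have no list among those used. MACS2, STAR 2.4.2a and hg38 are named, per the submitters' processing notes. Calling thresholds and the input used for a list are not stated there. Each deposited peak has a linear fold enrichment, its p and q as −log10, a display score and, for RUNX2, summits, all computed by the authors. Read depth is unknown, so a missing peak was not called at an unknown depth.

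Lines with the same RUNX2 interval were joined, keeping the summit of highest fold enrichment, and the strongest overlapping PER-117 peak was the partner. A site was acetylated when its midpoint lay inside an H3K27ac region. Gene spans came from RefSeq GRCh38.p14, and strand and sequence from RefSeq promoter windows. Values are counts, medians and shares with Wilson 95% intervals, with no test. The sites and gene lists were chosen with earlier results of these data known. Genes were named by rank in both lines (the worse of 2 ranks), by width, by acetylation state and up to 4 per list, leaving out chromosome 8; some genes that the rule names are not reported here. Some genes of the lists are named for a small count or marker check. Overlap code was checked against bedtools 2.31.1 on simulated intervals. Scripts ran under Python 3.11.15 with pandas 2.3.3, scipy 1.17.1, numpy 2.4.6 and, for the plots, matplotlib 3.10.9. Alternatives covered the window, the midpoint, the overlap, peak strength and the H3K27ac lists.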

Additional observations from a re-analysis of the deposited data

How the results depend on the processing

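The number of shared gene-end sites and of their genes depended on the strength required. With −log10 q of 10 or more in both RUNX2 lists there were 2186 sites at 2581 genes, with median widths of 543 bp (KARPAS-45) and 498 bp (PER-117). When each list was limited to its 5000 strongest peaks there were 495 sites at 586 genes, with medians of 642 and 591 bp, and 89.7% were acetylated in both lines. The KARPAS-45 median was 452 bp with a window of 500 bp, 421 bp with 2.5 kb, 445 bp with an overlap of 50% of the shorter interval and 425 bp with summits of both lines within 100 bp, an alternative added after the data were seen. The share acetylated in both lines was 93.3% with a window of 500 bp, 88.3% with 2.5 kb, 89.6% with summits within 100 bp and 95.3% when any overlap with H3K27ac counted. It was 76.8% with H3K27ac of −log10 q of 2 or more and 87.3% with the wider 50% of each H3K27ac list. It fell to 28.0% when the KARPAS-45 H3K27ac list was shortened to its 5379 widest regions, which cover as much of the genome as the PER-117 list. The order of shared and KARPAS-45-only gene-end sites was kept there (28.0% and 19.3%), while shared distal sites then stood at 27.04%. The other 19 of 39 values stayed within their interval or within 1.5 times the count.

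With −log10 q of 10 or more, 24.2% of the genes acetylated in both lines had a shared site, against 46.7% among genes acetylated in PER-117 and 49.6% as reported. Each of these alternatives was added after the data were seen. No paired analysis was possible because each line has 1 library per antibody.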

Other observations

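At 610 genes more than 1 shared site was found, and 4 was the largest number at a gene. SHF, an adaptor protein, had 2 sites at each end of its span on chromosome 15, with fold enrichments in KARPAS-45 of 14.5 and 11.04 at the start and 4.18 and 3.49 at the 3′ end, where both overlapped the same PER-117 peak. FNBP1, which bends membranes during endocytosis, likewise had 2 sites at each end, those at the start shared with GPR107, with KARPAS-45 values of 9.01 and 6.28 at the start and 14.8 and 5.16 at the 3′ end. CTDSP1, a phosphatase of the RNA polymerase II tail, shared the 2 sites at its start with SLC11A1, an ion transporter of phagosomes, and had 2 more at its 3′ end. All of these sites were acetylated in both lines.

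At 358 genes RUNX2 lay at an end in both lines without an overlapping pair of peaks that met the rule. These genes are outside the 5289, although each line had a peak within 1 kb of one of their ends. Of the 4827 sites, 212 overlapped 2 PER-117 peaks and 6 overlapped 3, and at 4772 (98.9%) the PER-117 partner had its own midpoint within 1 kb of a gene end.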
